A study of Mus musculus with 8 samples.

Results

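The ribosomal protein genes were the autosomal protein-coding mouse genes whose symbols begin with Rpl or Rps and a digit, or with Rplp, without the Rps6k kinase genes and without pseudogenes. The rule found 84 genes among 20665 autosomal protein-coding genes. Of these, 72 encode proteins of the cytosolic ribosome, 43 of the large subunit with its stalk and 29 of the small subunit. The other 12 comprise 11 paralogs or retrogenes and Rps19bp1, whose product binds the ribosomal protein S19 and is not itself a ribosomal protein. Within 1 kb of these genes or inside them lay 181 CHD4 sites of 121267 in the series. The rule itself used symbols and positions, not measured values.

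The libraries were CHD4 ChIP-seq of dissected, frozen right and left mouse atria, a tissue labelled as holding mixed cell types. All mice were TBX5flox/flox, with Tbx5 alleles that Cre can excise, and were injected with AAV9 on postnatal day 2. The mice of the 2 libraries titled TBX5 KO are taken to have received AAV9:Nppa-Cre and those of the 2 libraries titled control AAV9:Nppa-EGFP, which encodes a fluorescent protein. The age at collection is not given in the sources used here. Nppa is a gene of atrial cardiomyocytes, so other cell types of the atria are not the target of the vector, and bulk tissue cannot separate their share of a signal. Genotype and treatment labels contradict the titles, giving each group the other group's genotype and vector, and the protocol calls the Cre mice CHD4 KO. Every direction below rests on the titles, and the files do not settle which is right. Nothing says that replicates came from separate animals, so their spread may be technical.

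CHD4 is the ATPase of the NuRD complex, which moves nucleosomes and removes histone acetylation. Ribosomal protein genes are short, are transcribed in every cell and have promoters held open by general factors of the ETS, YY1 and SP families. Their transcripts typically begin with a C followed by a run of pyrimidines, the terminal oligopyrimidine tract, through which mTOR signalling adjusts their translation. In the heart, production of ribosomes accompanies the growth of cardiomyocytes after birth.

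Nearly every ribosomal protein gene had CHD4 in every library. A peak was called at 78 and 79 of the 84 genes in TBX5 KO libraries 1 and 2, and at 79 in each control library. The means were 78.5 ± 0.707 genes in TBX5 KO and 79 ± 0 genes in control atria (SD, n = 2 each), with p = 1 in an exact permutation test (two-sided). A site called in all 4 libraries was found at 78 genes (92.9%), against 62.8% of all autosomal protein-coding genes. This set contained all 40 large-subunit genes outside the stalk, all 29 small-subunit genes and all 3 stalk genes. It also contained Rps19bp1 and 5 of the 11 paralogs or retrogenes.

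The genes without a common site were all paralogs or retrogenes. Rpl10l and Rpl39l, whose products replace Rpl10 and Rpl39 in male germ cells, had no peak in any library. Rpl32l, Rps23rg1 and Rps27rt had none either, which does not show that CHD4 is absent there, since a site below the call threshold is not listed. Rpl37rt had 1 site, with a pileup over background of 2.54 in TBX5 KO library 2, against 3.36 and 2.92 in control libraries 1 and 2, and no call in TBX5 KO library 1. Pileup over background is the number of overlapping fragments at the peak summit, recovered from the authors' fold and −log10 p, divided by the background of that library's genome. The fold, −log10 p and −log10 q are the authors' own values for each peak.

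The sites at ribosomal protein genes lay mostly at gene ends, and many were strong. Of the 181 sites, 147 (81.2%) were gene-end sites, at most 1 kb from either end of any protein-coding gene, against 19.96% of all 85294 autosomal sites at protein-coding genes. The median length of the genes was 3.21 kb, against 17.5 kb for all autosomal protein-coding genes, so a 1 kb margin covers more of them. Within a list, the strongest peak of a ribosomal protein gene had a median percentile of −log10 p of 90.6 and 91.8 in TBX5 KO libraries 1 and 2 and of 93.5 and 92.3 in control libraries 1 and 2. For all autosomal genes with a peak the medians were 88.6 and 89.8 in the TBX5 KO lists and 92.0 and 90.5 in the control lists. Of the 181 sites, 58 also lay within 1 kb of another protein-coding gene, so their signal cannot be given to the ribosomal protein gene alone.

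The strongest site reached the start of the gene in 54 of the 59 genes with a site for which RefSeq lists a start. The same share over all autosomal genes is not given here. Strong sites can be long, and at Rpl18, Rps19bp1 and Rpl23a the summit of the strongest site lay over 1 kb outside the gene in all 4 libraries. Across these genes the peak centres sat just upstream of the start. The summits had a median position of −94.5 and −95 bp in TBX5 KO libraries 1 and 2, and of −69.5 and −92.5 bp in control libraries 1 and 2, with negative values upstream. For all autosomal genes the medians were −55 bp in both TBX5 KO libraries and −55 and −63 bp in the control libraries. A peak covered the start of 57 of 64 genes in each TBX5 KO library (89.1%). In each control library it was 58 of 64 (90.6%). For all 16457 autosomal genes with a listed start the shares were 55.0% and 56.4% in TBX5 KO and 58.6% and 56.9% in control libraries. Among the 58 genes with a peak at the start, all 4 summits lay upstream at 38 and downstream at 3. Rpl27, a large-subunit gene, was among those 3, with summits at 50, 34, 40 and 37 bp in TBX5 KO libraries 1 and 2 and control libraries 1 and 2. Per library, 15.5% to 22.4% of the 58 genes had a downstream summit, against 28.6% to 32.0% of all autosomal genes with a peak. The median range of a ribosomal protein gene's summit over the 4 libraries was 80.5 bp. Distances are to the nearest listed start, which differed between libraries at 2 genes, Rpl3l among them.

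**Figure D1:**
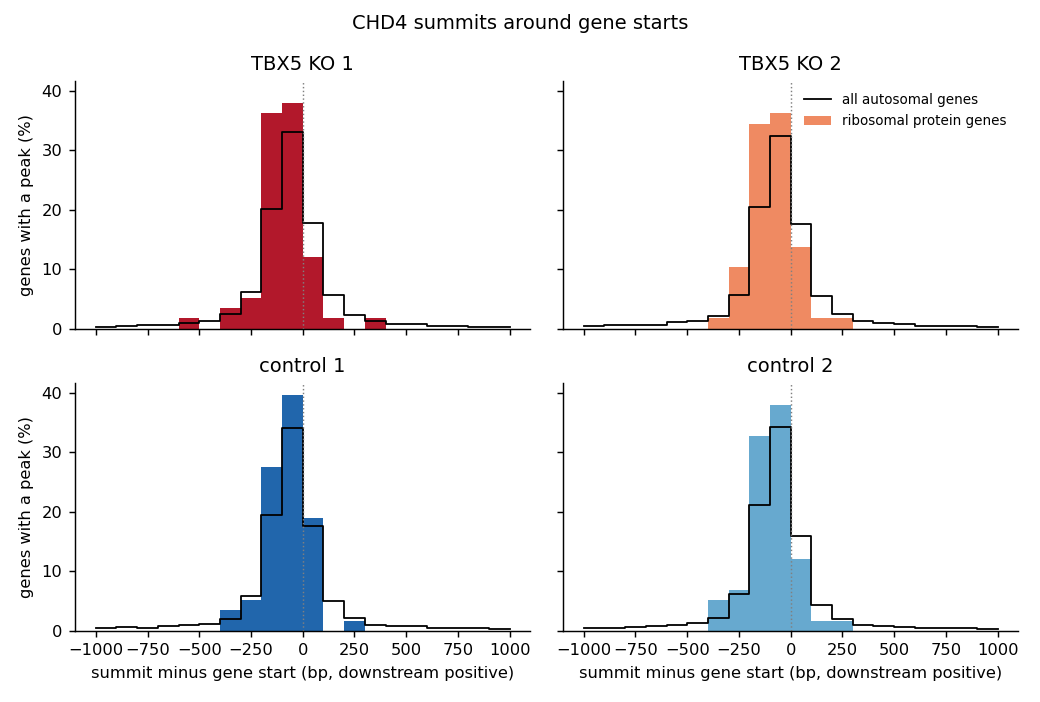
Distance of CHD4 peak summits from the nearest listed RefSeq start (bp, downstream positive) for ribosomal protein genes (bars) and all autosomal protein-coding genes (line), as a percentage of the genes with a peak, in 100 bp bins, for each library. In all 4 libraries the bars are tallest in the 2 bins upstream of the start.

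The promoters of 7 genes are shown, chosen by the CHD4 sites of the gene or, for Rpl3l, by name. The sites behind the choice need not lie at the promoter shown. They are the 3 genes with the highest-ranked sites that have a RefSeq promoter (Rpl18, Rpl15 and Rpl37), 3 genes with a site called in control atria only at their far end (Rps10, Rpl38 and Rpl13), and Rpl3l, the paralog of Rpl3 that striated muscle expresses. Each run holds 100 bases before and 20 bases from the first listed start on, read 5′ to 3′ on the gene's strand, from the RefSeq table of build GRCm38.p6, the assembly behind mm10. Capitals mark the run of pyrimidines that contains the start base, and there are none where that base is a purine.
Rpl18 (chr7:45717971-45718090, plus strand): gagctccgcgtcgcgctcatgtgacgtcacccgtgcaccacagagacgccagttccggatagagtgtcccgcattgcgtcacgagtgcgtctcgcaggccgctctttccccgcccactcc
Rpl15 (chr14:18270967-18271086, minus strand): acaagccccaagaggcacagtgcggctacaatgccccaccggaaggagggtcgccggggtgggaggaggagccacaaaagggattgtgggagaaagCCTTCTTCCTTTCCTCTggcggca
Rpl37 (chr15:5116513-5116632, plus strand): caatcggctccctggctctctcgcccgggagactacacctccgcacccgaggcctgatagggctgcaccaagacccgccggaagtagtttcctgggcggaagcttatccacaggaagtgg
Rps10 (chr17:27635225-27635344, minus strand): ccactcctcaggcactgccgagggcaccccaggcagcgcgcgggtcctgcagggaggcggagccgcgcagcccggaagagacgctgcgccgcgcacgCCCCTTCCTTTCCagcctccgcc
Rpl38 (chr11:114668480-114668599, plus strand): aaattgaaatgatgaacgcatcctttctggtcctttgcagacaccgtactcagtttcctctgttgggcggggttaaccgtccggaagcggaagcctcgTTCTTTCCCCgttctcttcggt
Rpl13 (chr8:123102250-123102369, plus strand): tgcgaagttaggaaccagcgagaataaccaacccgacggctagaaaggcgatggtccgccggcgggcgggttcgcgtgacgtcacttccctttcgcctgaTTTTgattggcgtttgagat
Rpl3l (chr17:24727726-24727845, plus strand): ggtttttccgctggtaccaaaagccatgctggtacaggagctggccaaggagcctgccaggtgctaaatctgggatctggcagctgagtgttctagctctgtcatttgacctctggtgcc

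The start bases of Rpl15, Rps10 and Rpl38 lie in pyrimidine runs of 17, 13 and 10 bases, and each of these runs holds CTTTCC. The 7-base ETS motif CCGGAAG was found in the windows of Rpl15, Rpl37, Rps10 and Rpl38, and none of the motifs searched was found in that of Rpl3l. Over the 300-base RefSeq windows of the 64 genes with a promoter in the table, 14 (21.9%) had a C at the first listed start followed by 4 pyrimidines, against 2.18% of all 16457 autosomal protein-coding promoters. CTTTCC on the gene's strand was found in 22 windows (34.4%, against 13.9% of all promoters). Searched on both strands, CCGGAAG was found in 23 windows (35.9%, against 12.3%), the YY1 motif AAGATGG in 9 (14.1%, against 6.42%) and the SP motif GGGCGG in 36 (56.3%, against 47.3%). On both strands the NF-Y motif CCAAT was found in 19 windows (29.7%, against 39.0%), and the T-box motif GGTGTG in 4 (6.25%, against 18.2%). TATAAA on the gene's strand was found in 5 windows (7.81%, against 9.08%). A match describes these letters in these windows and is not evidence of binding. Motifs were searched independently, and CTTTCC can overlap the pyrimidine run at the start.

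The number of sites called at ribosomal protein genes was lower in the TBX5 KO libraries. There were 111 and 116 sites in TBX5 KO libraries 1 and 2, against 152 and 142 in control libraries 1 and 2. The means were 113.5 ± 3.54 in TBX5 KO and 147 ± 7.07 in control atria (SD, n = 2 each), a ratio of 0.772. The exact permutation p (two-sided) was 0.333, and 2 libraries against 2 allow no smaller one. Over all autosomal sites at protein-coding genes the means were 38987.5 ± 4130 in TBX5 KO and 62584.5 ± 5191 in control atria, a ratio of 0.623. The deposited lists themselves held 61173 and 69557 peaks in TBX5 KO and 99924 and 91520 peaks in control atria. When only the 61173 strongest peaks of every list were kept, 111 and 111 sites were called in TBX5 KO and 112 and 112 in control libraries, so at equal list length the counts differed by 1 site. Over all autosomal sites at protein-coding genes the equal-length counts were 36230 and 37393 in TBX5 KO and 40374 and 39456 in control libraries.

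**Figure D2:**
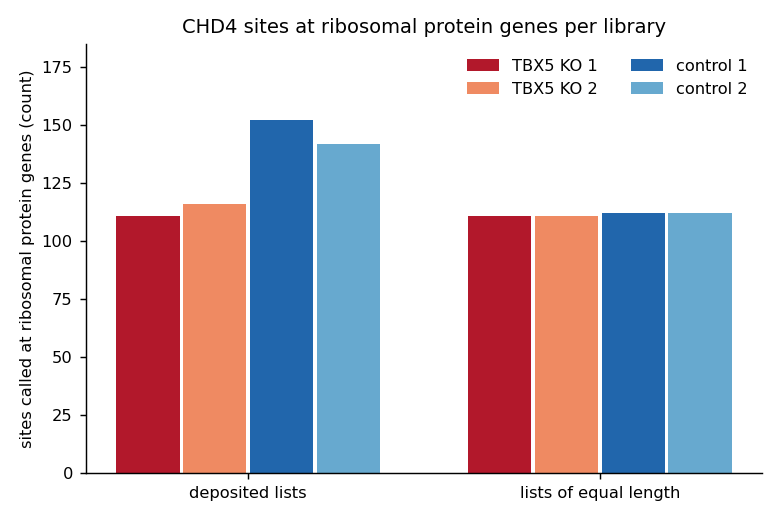
Number of CHD4 sites called at the ribosomal protein genes in each library, in the deposited lists and in lists of equal length, cut to the 61173 strongest peaks. The TBX5 KO counts of 111 and 116 lie below the control counts of 152 and 142 in the deposited lists, and all 4 counts lie at 111 or 112 in lists of equal length.

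Both control libraries shared 124 sites. Of them 97 also had a peak in both TBX5 KO libraries, 12 in a single one, and 15, termed control-only, in none. The control-only sites made up 12.1% (95% Wilson interval 7.47% to 19%, counting error only), against 24.2% of all autosomal sites at protein-coding genes. At gene ends the share was 11 of 114 sites (9.65%, 5.47% to 16.5%), against 7.06% of all autosomal gene-end sites. Sites are not replicates, so the intervals are no test, and differences from the background shares were not tested. Inside genes and away from their ends it was 4 of 10 sites, against 30.9% of all such autosomal sites. In lists of equal length only 1 of 103 sites was control-only (0.971%), against 13.2% of all autosomal sites at protein-coding genes. In the same lists 1 of 99 gene-end sites (1.01%) was control-only, against 2.60% of all autosomal gene-end sites.

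No ribosomal protein gene had a site that was TBX5 KO-only, shared by the TBX5 KO libraries and absent from the control lists. That was 0 of the 99 sites the TBX5 KO libraries shared, against 1.7% of all autosomal sites at protein-coding genes. At gene ends it was 0 of 95 sites, against 0.555% of all autosomal gene-end sites, so a count of 0 lies near that share. Of the 181 sites, 49 (27.1%) were called in a single library, against 37.3% of all autosomal sites at protein-coding genes. At gene ends these shares were 18.4% for ribosomal protein genes and 17.3% for all autosomal genes. The single-library sites were 4 and 7 in TBX5 KO libraries 1 and 2 and 22 and 16 in control libraries 1 and 2. The 6 sites of 1 TBX5 KO and 1 control library were spread over the mixed patterns at 0 to 2 sites each.

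**Figure D3:**
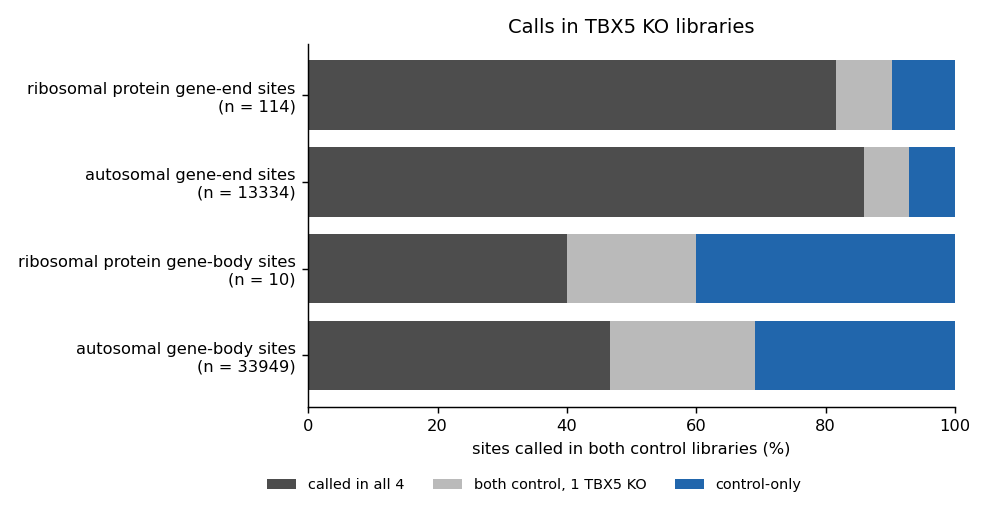
Percentage of the sites shared by the control libraries (n beside each bar) that had a peak in both, in 1 or in none (control-only) of the TBX5 KO lists, for ribosomal protein genes and all autosomal protein-coding genes, at gene ends and inside genes. The control-only share at gene ends is 9.65% for ribosomal protein genes and 7.06% for all autosomal genes.

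The control-only sites were secondary sites of genes whose main site was called everywhere. They lay at 15 genes, 17.9% of the 84, against 23.9% of all autosomal protein-coding genes, and each of the 15 genes also had a site in all 4 libraries. Their rank in control was low, with a percentile of −log10 p between 3.98 and 51.7 (median 18.7), against a median of 90.4 for all 124 sites. Their folds over local background in the control lists were 1.93 to 3.87. Among sites in the lower 5 deciles of control rank, 15 of 30 were control-only, against 43.6% of all autosomal sites at protein-coding genes. At gene ends of those deciles the count was 11 of 24 (45.8%), against 32.4%. All 15 sites of ribosomal protein genes in deciles 6 to 8 and all 79 in deciles 9 and 10 were called in all 4 libraries. In these ranges the shares called in all 4 among all autosomal sites at protein-coding genes were 76.5% and 98.1%. At gene ends, where 14 of the 15 and 76 of the 79 sites lay, they were 91.7% and 99.8%.

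Where RefSeq gives a start, 7 of 11 control-only sites lay at the far end of the gene, 3 elsewhere and 1 at the start. Over all autosomal genes with a listed start, 589 control-only gene and site pairs lay at far ends, 8294 elsewhere and 311 at starts. Ribosomal protein genes are shorter than most, which leaves less room away from the ends. Their highest-ranked control-only site was that of Rps10, a small-subunit gene mutated in some human patients with Diamond-Blackfan anaemia. It lay past the far end (chromosome 17, 27629245 to 27629641) and had a pileup over background of 4.15 and 3.02 in control libraries 1 and 2. It was also the only one left in lists of equal length. Rps10 had the most sites of the genes, 7, of which 5 were called in 1 or 2 libraries only, beside the control-only site and the start site. The start site of Rps10 (27634261 to 27635895) was called in all 4 libraries, at 9.92 and 8.20 in TBX5 KO and 14.3 and 13.6 in control libraries.

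Far-end sites were also control-only at Rpl38, a large-subunit gene needed for normal patterning of the mouse skeleton, and at Rpl13 and Rpl23, of the same subunit. The far-end site of Rpl38 had 3.66 and 2.63 in control libraries 1 and 2, that of Rpl13 2.47 and 3.12 and that of Rpl23 2.67 and 2.73. Rplp2, which encodes an acidic protein of the stalk that recruits elongation factors, Rpl27 and Rpl7a had such sites at 2.53 to 2.92. The site of Rpl7a also lay at Surf1, and that of Rpl23 at 1700001P01Rik. The sites at Rpl15, Rpl35 and Rpl7l1 lay at neither end, and the one counted at a start was that of Rps19bp1, at 2.18 and 2.34. Rpl29 and Rpl32 have no listed start in the table, and their control-only sites had control pileups over background of 2.63 to 3.21.

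Over gene and site pairs, 58 of 63 start sites of ribosomal protein genes (92.1%) were called in all 4 libraries, against 81.6% for all autosomal genes. Of far-end sites 14 of 46 (30.4%) were called in all 4, against 39.0%. The control-only share was 1 of 60 at starts (1.67%, against 2.90% for all autosomal genes) and 7 of 28 at far ends (25%, against 19.6%). The median decile of control rank was 10 at starts and 4.5 at far ends, so place and strength cannot be told apart in this contrast.

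At the strongest sites of the ribosomal protein genes CHD4 pileup was lower in the TBX5 KO libraries. At the 78 genes whose strongest site was called in all 4 libraries, the median pileup over background was 6.59 and 6.82 in TBX5 KO libraries 1 and 2, and 12.1 and 10.3 in control libraries 1 and 2. The lowest and highest values were 2.62 and 10.8 in TBX5 KO library 1, 2.46 and 12.4 in TBX5 KO library 2, 4.65 and 23.7 in control library 1, and 3.80 and 24.5 in control library 2. The highest values of TBX5 KO library 2 and of both control libraries were those of Rpl18, from a summit over 1 kb outside that gene. At all 78 genes both TBX5 KO values lay below both control values. The TBX5 KO over control ratio, taken from geometric means, ranged from 0.453 to 0.763 with a median of 0.581.

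Other gene-end sites showed much the same. Of the 93 gene-end sites of ribosomal protein genes called in all 4 libraries, 92 had both TBX5 KO values below both control values, against 92.8% of all autosomal gene-end sites. In the 2 highest deciles of control rank it was 76 of 76 sites, against 99.5%. The median ratio was 0.589 at the 97 sites of ribosomal protein genes called in all 4 libraries (25% to 75% range 0.524 to 0.634), against 0.612 at 11467 autosomal gene-end sites (0.545 to 0.699). Between single libraries the 4 medians at ribosomal protein genes ran from 0.547 to 0.613, with an SD of 0.0348. The difference between the sets was not tested. In the highest decile of control rank the median ratio was 0.539 at 44 sites of ribosomal protein genes and 0.551 at 4619 gene-end sites, and in the next 0.613 at 32 and 0.618 at 2771. In decile 8 it was 0.593 at 7 sites of ribosomal protein genes and 0.666 at 1498 gene-end sites, and in decile 6 0.625 at 4 and 0.750 at 562. Decile 7, between them, went the other way, with 0.706 at 3 and 0.696 at 947. Deciles 1 to 7 held few sites of these genes, at most 4 each.

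**Figure D4:**
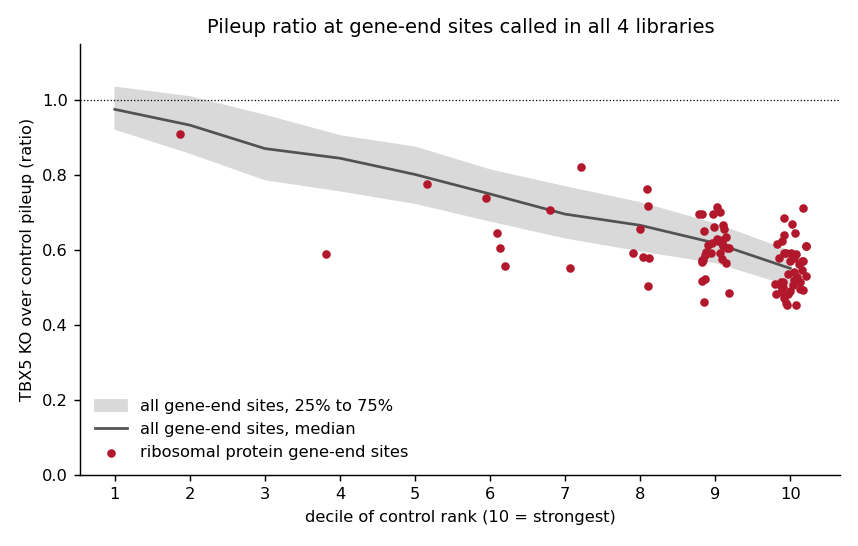
TBX5 KO over control ratio of CHD4 pileup over background against the decile of control rank, for gene-end sites called in all 4 libraries. Points are sites of ribosomal protein genes, jittered sideways, and the line and band give the median and the 25% to 75% range of all autosomal gene-end sites. In deciles 9 and 10 the medians are 0.613 and 0.539 for ribosomal protein genes and 0.618 and 0.551 for all gene-end sites.

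The median ratio over all 38042 sites called in all 4 libraries was 0.645. With pileups scaled to the median of those sites in each library, the median ratio was 0.930 at ribosomal protein genes and 0.966 at all autosomal gene-end sites. Weak gene-end sites called in all 4 libraries had ratios near 1, with a median of 0.975 over the 58 sites of the lowest decile. This choice leaves out weak sites whose TBX5 KO values fell below the call threshold. In deciles 1 to 5 only 40.4% of the autosomal gene-end sites shared by the control libraries were called in all 4. The libraries' backgrounds were 10.7 and 13.4 fragments in TBX5 KO and 10.1 and 10.3 in control atria. The part of these unequal backgrounds in the ratios was not tested.

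The order of the sites was similar in all libraries. Across the 93 gene-end sites, Spearman's rho of pileup over background was 0.849 between the TBX5 KO libraries, 0.898 between the control libraries and 0.832 to 0.899 between a TBX5 KO and a control library. These are descriptions across sites, which share each library's depth and are not replicates.

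The strongest CHD4 sites were at Rpl18, Rpl15, Rpl37, Rps19, Rpl27, Rps21, Rpl27a and Rpl41. Rpl18 encodes a large-subunit protein and headed the list. Its value was 9.92 and 12.4 in TBX5 KO and 23.7 and 24.5 in control libraries, but it belongs to a long site (chromosome 7, 45699457 to 45720571) that spans Dbp, Sphk2, Car11 and Fam83e. The summit behind these values lay 10504 and 10526 bp outside Rpl18 in TBX5 KO and 10554 and 10526 bp outside it in control libraries, so they do not measure its promoter. A separate peak covered the Rpl18 start in the TBX5 KO lists, with 7.39 and 6.86, while in the control lists the start lay within the long peak.

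Rpl15, of the large subunit, had 10.8 and 9.62 in TBX5 KO and 21.8 and 21.3 in control libraries at its start (chromosome 14, 18270319 to 18272278). Rps19, the small-subunit gene most often mutated in human Diamond-Blackfan anaemia, had 9.73 and 9.77 in TBX5 KO and 19.98 and 17.5 in control libraries (chromosome 7, 24882725 to 24885321). Rps21, of the small subunit, had 8.98 and 10.7 in TBX5 KO and 22.6 and 20.6 in control libraries. At each of these genes the TBX5 KO and control values were well apart and the replicates close together. The sites of Rpl15 and Rps21 also lay within 1 kb of Nkiras1 and Cables2, while that of Rps19 lay at no other gene.

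**Figure D5:**
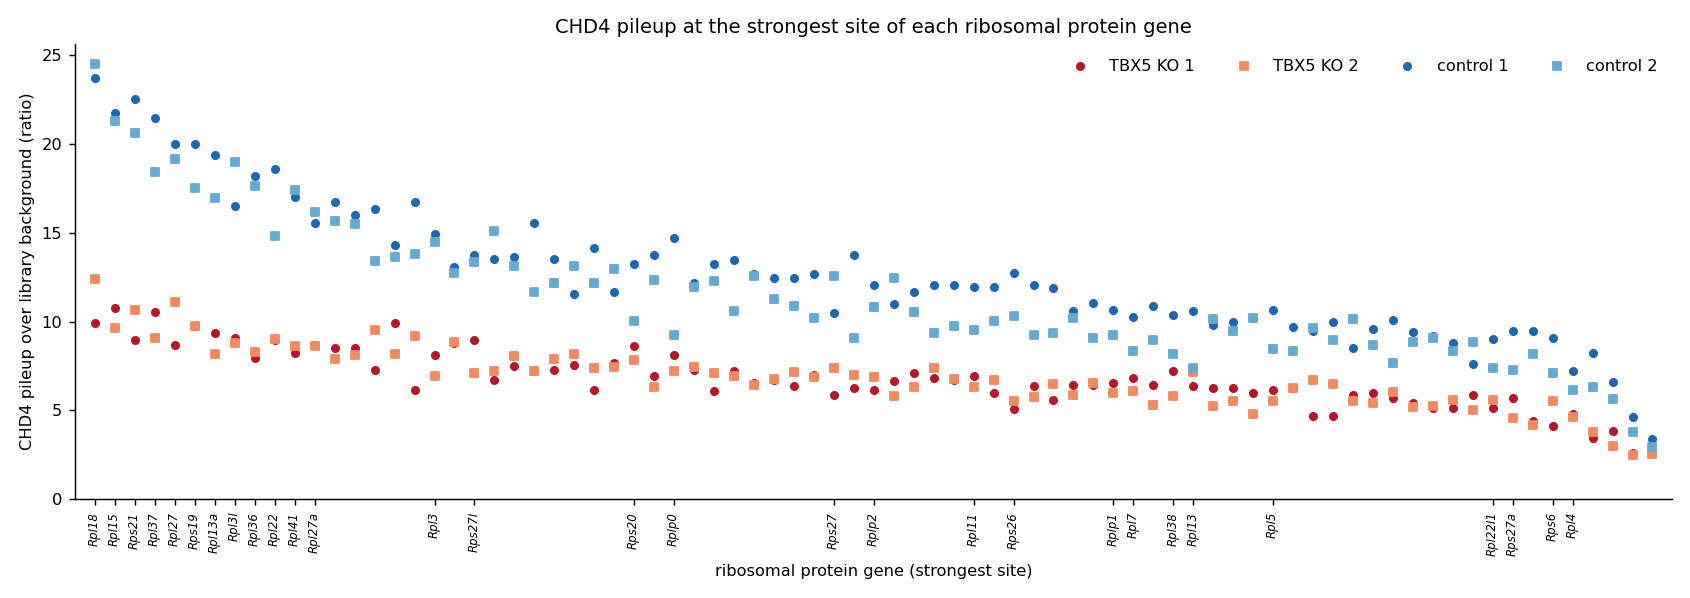
CHD4 pileup over library background at the strongest site of each of the 79 ribosomal protein genes with a site, ordered by the mean over the libraries in which it was called, with symbols for the strongest sites, the lowest and highest ratios and the genes set by name. Red and orange points (TBX5 KO) lie below blue points (control) at the 78 genes called in all 4 libraries.

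Ratios were ranked at the strongest gene-end site of each gene. The lowest TBX5 KO over control ratios there were those of Rpl36 (0.453), Rps21 (0.454), Rpl18 (0.459), Rps26 (0.460) and Rpl15 (0.472). Rps26, of the small subunit, had 5.05 and 5.52 in TBX5 KO and 12.8 and 10.3 in control libraries. The highest ratios at strongest sites were those of Rpl13 (0.763), Rps20 (0.712), Rpl4 (0.706), Rpl38 (0.702) and Rpl7 (0.696). Weaker gene-end sites of ribosomal protein genes had ratios up to 0.911. Some of the strongest sites with the lowest or highest ratios are shared with other genes. That of Rpl4 lay at its far end and at Snapc5, with summits 688 to 885 bp outside Rpl4. Those of Rpl7 and Rpl36 also lay at Rdh10 and Micos13, with summits 635 to 725 and 248 to 362 bp outside the gene. Their ratios cannot be given to the ribosomal protein gene alone. At Rpl13 the gap between the groups was narrower than that between the control replicates, with 6.36 and 7.16 in TBX5 KO and 10.6 and 7.40 in control libraries. These genes were picked by their ratios, which are therefore given without a test. With the groups exchanged, as the genotype and treatment labels have them, each ratio becomes its reciprocal. The order then turns round, and the values at the 78 genes run from 1.31 to 2.21. The subunits had close medians, with a ratio of 0.583 over 40 large-subunit genes, 0.575 over 29 small-subunit genes and 0.629 over the 3 stalk genes.

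The stalk genes had moderate sites. Rplp0, which encodes the base of the stalk, had 8.14 and 7.23 in TBX5 KO and 14.7 and 9.25 in control libraries. Rplp1 had 6.55 and 5.97 in TBX5 KO and 10.7 and 9.25 in control libraries, and Rplp2 had 6.17 and 6.86 in TBX5 KO and 12.1 and 10.8 in control libraries. The groups did not overlap at any of the 3 genes. The same held at 99.5% of all autosomal gene-end sites called in all 4 libraries in the 2 highest deciles of control rank.

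Rpl5 and Rpl11, whose products bind the p53 regulator MDM2 together with 5S rRNA, behaved alike. Rpl5 had 6.17 and 5.52 in TBX5 KO and 10.7 and 8.47 in control libraries, and Rpl11 had 6.92 and 6.34 in TBX5 KO and 11.97 and 9.54 in control libraries. Each had a single site, called everywhere. Rps6, which encodes the substrate of the S6 kinases, had 4.12 and 5.52 in TBX5 KO and 9.10 and 7.11 in control libraries. Rpl13a, whose product also restrains translation of inflammatory transcripts, had 9.35 and 8.20 in TBX5 KO and 19.4 and 16.9 in control libraries. Its site lay at Flt3l as well.

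The paralogs Rps27l and Rpl22l1 had values at their start sites in the range of the other genes, while the start sites of Rpl3l, given below, were weaker. Rps27l had 8.98 and 7.08 in TBX5 KO and 13.7 and 13.3 in control libraries, and Rps27 had 5.89 and 7.38 in TBX5 KO and 10.5 and 12.6 in control libraries. Rpl22l1 had 5.15 and 5.59 in TBX5 KO and 9.001 and 7.40 in control libraries. Rpl22, the widely expressed member of that pair, had 8.98 and 9.02 in TBX5 KO and 18.6 and 14.8 in control libraries. Rps27a, which encodes a ubiquitin fusion protein, had 5.71 and 4.55 in TBX5 KO and 9.50 and 7.30 in control libraries.

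Rpl3l had its strongest site at its far end. It encodes the striated muscle form of the large-subunit protein L3. This far-end site, shared with Msrb1, had 9.07 and 8.80 in TBX5 KO and 16.5 and 18.99 in control libraries. RefSeq lists 2 starts for Rpl3l. The site at the first was weak, with 3.28 in TBX5 KO library 2 and 3.46 and 3.02 in control libraries 1 and 2, and was not called in TBX5 KO library 1. Rpl3, the form used in most tissues, had 8.14 and 6.94 in TBX5 KO and 14.9 and 14.5 in control libraries at its strongest site.

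The site at the other listed start of Rpl3l, at base 24732685 and away from the ends of the gene, had the lowest ratio of the 97 sites called in all 4 libraries. This site (chromosome 17, 24731691 to 24734040) had a pileup over background of 3.46 and 2.54 in TBX5 KO libraries 1 and 2, against 9.40 and 7.30 in control libraries 1 and 2, a ratio of 0.358. Its peaks were 895 and 871 bp wide in TBX5 KO and 1972 and 2120 bp wide in control libraries. Of the 2142 autosomal sites inside genes and over 1 kb from their ends in the same decile of control rank, which had a median ratio of 0.541, 4.81% had a lower ratio. The value was picked as the lowest and has no test. The 3 other such sites of ribosomal protein genes called everywhere had ratios of 0.709 at Rpl19, 0.606 at Rps2 and 0.583. Those of Rpl19 and Rps2 covered a listed start, so being away from the ends of a gene does not mean away from a promoter.

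Peaks were narrower in the TBX5 KO libraries. At the 97 sites in all 4 libraries the median width was 1153 and 1213 bp in TBX5 KO libraries 1 and 2, against 1629 and 1549 bp in control libraries 1 and 2. The median TBX5 KO over control ratio of widths was 0.783, and 90 of the 97 sites had a ratio below 1. At all autosomal gene-end sites called in all 4 libraries the median ratio was 0.793, and 9916 of 11467 had a ratio below 1. A called interval shortens when its flanks fall below the threshold, so width and pileup are not separate measures.

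Other genes of the translation machinery also had common sites. All 20 further genes of translation with terminal oligopyrimidine transcripts, among them Eef1a1, Eef2, Rpsa and Rack1, had a site called in all 4 libraries, as did all 24 genes of ribosome biogenesis and all 78 autosomal genes of the mitochondrial ribosome. Over all autosomal protein-coding genes the share was 62.8%. Control-only sites were 7 of 45 at the translation genes (15.6%), 5 of 50 at the biogenesis genes (10%) and 20 of 129 at the mitochondrial genes (15.5%). Over all autosomal sites at protein-coding genes the share was 24.2%, and over gene-end sites alone 7.06%. Median TBX5 KO over control ratios of pileup at sites called in all 4 libraries were 0.573 at the translation genes, 0.584 at the biogenesis genes and 0.594 at the mitochondrial genes, against 0.589 at the ribosomal protein genes. The median was 0.640 at all such autosomal sites at protein-coding genes and 0.612 at gene-end sites alone.

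Markers of cell types were listed for context only, since a CHD4 peak does not measure expression. Of the atrial cardiomyocyte markers Nppa, Myl7, Sln and Myl4, 3 of 4 had a site in all 4 libraries, as did all 4 fibroblast and all 3 endothelial markers. Among all autosomal protein-coding genes 62.8% had one. Control-only sites were 3 of 13 at the cardiomyocyte (23.1%), 2 of 19 at the fibroblast (10.5%) and 8 of 29 at the endothelial markers (27.6%). All autosomal sites at protein-coding genes had a share of 24.2%. The median ratios were 0.459 over 8 cardiomyocyte, 0.764 over 10 fibroblast and 0.688 over 15 endothelial sites. Over 27295 autosomal sites at protein-coding genes called in all 4 libraries it was 0.640. The part of cell composition in the values at ribosomal protein genes was not tested.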

How the data were processed

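Peak lists of 4 CHD4 ChIP libraries were used, 2 titled TBX5 KO and 2 titled control, while the 4 input libraries were not analysed on their own. Peaks were called with MACS2 on build mm10, per the submitters' processing notes, which also name DiffBind without a version. For the aligner and the settings nothing is stated in the sources used here. The 4 lists are per library, not pooled. In the deposited columns, the authors' ratio (fold) sets pileup over local background, −log10 p and −log10 q are the deposited values, with a lowest −log10 q of 1.30 to 1.31, and the deposited score is −log10 q times 10 as a whole number. The lists give no read totals, so depth is unknown.

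Peaks were merged into sites on 1 bp overlap and assigned to protein-coding genes within 1 kb, with positions from the RefSeq table of GRCm38.p6. Pileup and local background were solved from fold and −log10 p under a Poisson model with 1 added to both terms of the fold. Of the peaks, at least 99.998% gave a pileup within 0.02 of a whole number, and the steps were tested on simulated data. A library's background is its most frequent local background. Where a library had several peaks in a site, the strongest gave the pileup, and in a long site it can lie outside the gene. Widths of several peaks in a site were summed. Control rank is the mean percentile of −log10 p in the control lists, in 10 deciles. RefSeq gives a promoter and strand for 64 of the 84 genes. Python 3.11.15, pandas 2.3.3, NumPy 2.4.6 and SciPy 1.17.1 were used.

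The genes and lists were chosen with earlier results of these data known. Named genes were the 8 with the highest-ranked sites, up to 15 with a control-only or TBX5 KO-only site, those with no site, the 5 lowest and 5 highest ratios, and 17 set by name. Values of some named genes are not reported here. The settings varied were stricter −log10 q (3 or 5), equal list lengths, an overlap of 50% of the shorter peak, summits within 250 bp, a 2.5 kb margin, gene ends or cytosolic ribosomal proteins only, each library left out, replicate pairs, exchanged groups, the fold without the added 1 and another scaling. Added after seeing the data were sites with no other gene within 1 kb, subtraction of the background, and exchanged groups for the ratios. The replicate numbers were not treated as pairs in the main comparisons.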

Additional observations from a re-analysis of the deposited data

How the results depend on the processing

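The difference in sites per library at ribosomal protein genes (TBX5 KO minus control, −33.5 sites) kept its sign under every alternative tried except the exchange of groups, which turns it to 33.5 by construction, and it was −1 in lists of equal length, −27 and −18.5 at −log10 q of at least 3 and 5, and −38.5 to −28.5 with each library left out. The difference in genes with a site (−0.5) was 0 in lists of equal length and −1 to 0 with each library left out. The control-only share of 12.1% was 0.971% in lists of equal length and 15.3% to 24.3% with each library left out, since fewer libraries meet the pattern more often. With groups exchanged it was 0%. At −log10 q of at least 3 and 5 it was 7.96% and 7.69%, by 50% overlap 13.7%, by summits 12.5%, and at sites with no other gene 14.8%. The median pileup ratio of 0.589 was 0.930 when scaled to all sites called in all 4 libraries and 0.536 with the background subtracted (0.564 at all autosomal gene-end sites), 1.70 with groups exchanged, and 0.548 to 0.616 with each library left out. The width ratio of 0.783 was 1.28 with groups exchanged and 0.735 to 0.814 with each library left out.

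Deviations of same-numbered libraries from their group means correlated at −0.0315 over 11467 gene-end sites. This correlation cannot see a shift common to all sites of a library, so whether the replicate numbers pair the libraries stays unknown. Taken as a replicate block, pairs 1 and 2 gave control-only shares of 30.9% and 26.1%, site differences of −41 and −26, gene differences of −1 and 0, pileup ratios of 0.559 and 0.613 and width ratios of 0.712 and 0.821. With 2 libraries a group, the exact permutation test cannot go below 0.333, and weak sites near the call threshold limit every count of lost sites.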
